A study of Homo sapiens with 24 samples.

Results

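Whether cells carrying the separation-of-function glucocorticoid receptor (SoF) answered dexamethasone differently from cells carrying the wild-type receptor (wt) was examined as 1 contrast. It took the mean of 2 and 3 h minus 0 h in SoF, less the same quantity in wt, and so drew on 12 of the 24 libraries of the series, 6 from each line. The assay was 4sU-seq, which follows RNA made in the last hour: 4-thiouridine enters RNA during transcription and the labelled RNA is captured and sequenced. All cells were U2OS, a human osteosarcoma line, and all stably expressed GR-HaloTag, the receptor fused to a protein tag. The SoF receptor carried K492A, which in vitro lowers the affinity of its DNA-binding domain for RNA strongly and for DNA to a lesser degree. A further line, Ctrl, carried R470A, which in vitro lowers affinity for DNA and leaves that for RNA. Every group was grown in medium with charcoal-stripped serum and received 200 µM 4-thiouridine for its last hour. The 2 h and 3 h groups received 100 nM dexamethasone, a synthetic glucocorticoid. The 0 h groups received 0.01% ethanol for a time that the sources used here do not give. Medium was replaced at the start of treatment, so dexamethasone and time since that change cannot be told apart in a response. Each group of line and time had 2 libraries, and nothing in the labels says that they came from separate cultures. The p-values therefore measure the spread between these libraries, which may be technical. According to the paper, replicates went through biotinylation and pulldown in pairs. If a pair was the 2 libraries of a group, this spread leaves out variation between pulldowns. The transgene was integrated with the PiggyBac system, driven by a CMV promoter, selected with puromycin and sorted on the HaloTag dye. The paper chose sorted fractions to match nuclear receptor signal between lines, by immunofluorescence after a short dexamethasone treatment. Each line was 1 such pool, so that the effect of K492A and that of the pool cannot be told apart.

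GR, encoded by NR3C1, waits in the cytoplasm bound to HSP90 chaperones. Once it binds a glucocorticoid it enters the nucleus, where it binds DNA at glucocorticoid response elements and raises transcription of targets such as FKBP5, PER1 and TSC22D3, and lowers that of immediate-early and inflammatory genes, in part through AP-1 and NF-kappaB. GR also binds RNA, and the comparison of SoF with wt asks whether K492A changes the size of the response. The paper did not test in cells whether the mutant receptor binds less RNA.

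The libraries of the contrast held 12639036 to 15820806 counted reads in wt and 9199479 to 13410755 in SoF. The receptor gene itself differed between the lines. NR3C1, whose counts include any transgene reads that map to its exons, stood at 552 and 824 CPM (reads of the gene per 1e+06 counted reads, after TMM scaling of the library sizes) in wt at 0 h and at 2830 and 2430 CPM in SoF. The ratio of the group means was 3.82 at 0 h, 3.15 at 2 h and 3.21 at 3 h. Counts per gene do not show K492A itself. NR3C1 fell in both lines, by 0.60 on the log2 scale in wt (adjusted p = 0.0298) and by 0.86 in SoF (adjusted p = 0.00159). The difference between these responses was -0.27 (95% interval -0.79 to 0.26). These are RNA levels and do not give the amount of receptor protein, which the paper matched in the nucleus. In Ctrl the mean NR3C1 level at 0 h was 3315 CPM, above that of SoF. The higher NR3C1 RNA level in SoF was present beside every difference given here, and its part in them was not tested. Of the osteoblast-lineage markers, COL1A1, VIM, SPARC, RUNX2 and ALPL were present, whereas IBSP was at 0 in all 12 libraries and TWIST1 had 1 read, SP7 9 and COL1A2 34 in all. The summed level of 13 markers of epithelial, blood and endothelial cells lay between 17.1 and 35.6 CPM in wt and SoF libraries, with HBB at 0 and CD3E at 1 read.

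These 3 promoters are examples picked from a larger set of windows read singly: DEPP1, TXNIP and ETNK2, all described further on. The 3 genes had large fitted differences and rose in SoF. Other such genes, among them ADPRHL1 and METTL7B, are not shown. Each line gives the 250 bases before the RefSeq start site, read 5′ to 3′ along the gene (GRCh38.p14, minus strand). Capitals mark the FOXO site GTAAACA and the TATA box TATAAA, searched on both strands.
DEPP1 (chr10:44978810-44979059): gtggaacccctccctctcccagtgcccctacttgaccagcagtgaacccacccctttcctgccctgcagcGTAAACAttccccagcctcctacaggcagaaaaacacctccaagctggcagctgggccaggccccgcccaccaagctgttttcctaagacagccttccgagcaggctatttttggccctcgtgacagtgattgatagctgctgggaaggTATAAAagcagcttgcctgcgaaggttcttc
TXNIP (chr1:145996580-145996829): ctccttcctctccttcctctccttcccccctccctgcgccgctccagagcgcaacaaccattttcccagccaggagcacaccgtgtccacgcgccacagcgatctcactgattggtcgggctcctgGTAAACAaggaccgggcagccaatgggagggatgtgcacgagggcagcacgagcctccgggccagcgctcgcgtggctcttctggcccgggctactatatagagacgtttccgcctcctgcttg
ETNK2 (chr1:204152045-204152294): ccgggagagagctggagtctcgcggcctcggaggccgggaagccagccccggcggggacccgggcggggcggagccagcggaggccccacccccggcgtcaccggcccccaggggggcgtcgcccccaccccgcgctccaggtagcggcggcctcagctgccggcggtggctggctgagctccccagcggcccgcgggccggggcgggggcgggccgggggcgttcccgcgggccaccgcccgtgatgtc
DEPP1 held a FOXO site that starts 180 bases before the start site and a TATA box 31 bases before it, TXNIP held a FOXO site 124 bases before it, and ETNK2 held neither. The FOXO letters stood in 2.02% of the 13004 tested genes with a RefSeq window and in 1.62% of the 432 such genes that rose on average by at least 1 on the log2 scale. The TATA letters stood in 6.28% and 8.33% of the same sets. The palindromic glucocorticoid response element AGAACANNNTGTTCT was found in 0 of the 13004 windows and its half-site AGAACA in 7.97%, against 9.95% of the 432. None of the 3 windows shown held either. Of the other windows read singly, those of PDK4 and IP6K3 each held 1 half-site, and none held the FOXO letters. The 3 shown are therefore not a sample from which a share can be read. A match is a description of letters only.

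No gene passed the test for a different response in SoF and wt. Across 23651 genes tested with edgeR's quasi-likelihood test, 0 were called at an adjusted p under 0.05 (0%), the smallest adjusted p was 1 after rounding, and DESeq2 also called 0. At an unadjusted p under 0.05, edgeR gave 456 genes (1.93%), 274 with a difference above 0 (a more positive response in SoF) and 182 below 0, and DESeq2 gave 249. Taken singly, 2 h gave 388 such genes and 3 h gave 558, with 0 called at either time. All these counts lie below the share of 0.05 that evenly spread p-values would give, so 0 calls do not show equal responses. When genes of low counts were kept (48707 genes), 2 overlapping genes were called by edgeR: RASSF4, with a difference of 1.26 (adjusted p = 0.00656), and DEPP1, with 1.03 (adjusted p = 0.0157). Neither is a gene of low counts (6238 and 26276 reads over the 12 libraries). Both were tested with the filter too, with differences of 1.22 and 1.00, and were not called. Why the calls changed was not tested. The difference of responses was on the log2 scale and its median over all genes was 0.00. The 95% interval lay within 1 log2 unit of 0 for 57.2% of genes, with a median unadjusted half-width of 0.65.

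The same libraries held large responses within each line. In wt, 1587 genes rose (6.71%) and 1018 fell (4.30%). In SoF, 2274 rose (9.61%) and 1656 fell (7.00%). The mean of both responses called 3768 rising (15.9%) and 3259 falling (13.8%) genes. Calls in 1 line and not in the other do not show a difference, which is what the contrast above tests. The balance of rising and falling calls depended on scaling: with upper-quartile factors the median gene moved by -0.13 on average in place of -0.04, and the calls were 1131 up and 1496 down in wt, 1751 and 2372 in SoF, and 2899 and 4722 on average. The median difference between the lines was 0.01 under those factors. The 4 libraries at 2 and 3 h did not overlap the 2 ethanol libraries for 33.3% of all genes in wt and 32.2% in SoF. For 14.2% they were separate in SoF and overlapped in wt, and for 15.3% the reverse.

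**Figure D1:**
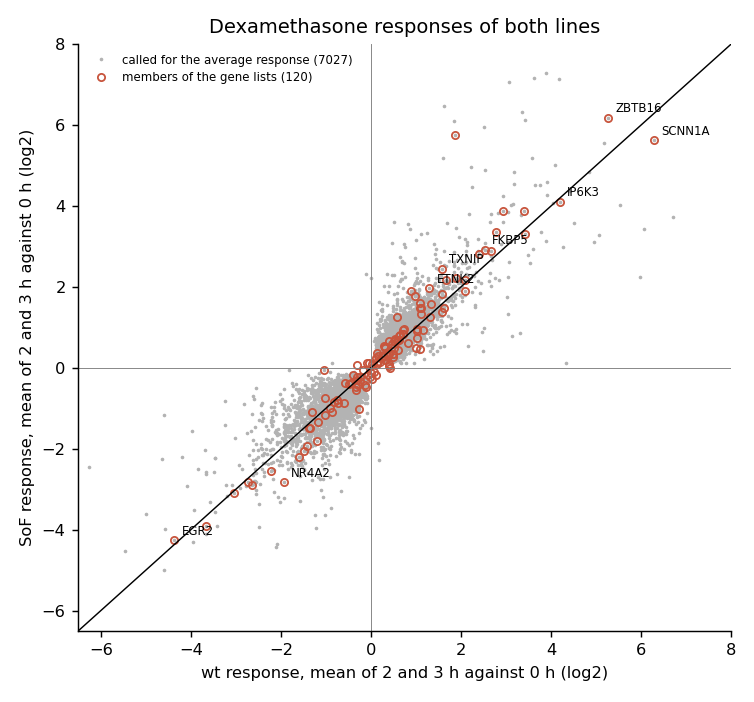
Response of each gene called for the average response, wt on the x axis and SoF on the y axis, both as log2 of the mean of 2 and 3 h against 0 h. Grey points are the 7027 called genes, of which 1 lies outside the axes, open red circles are the 120 tested members of the gene lists, and the black line marks equal responses. Most points lie near the line, and rising genes lie above it more often than below.

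Genes that rose with dexamethasone had a larger response in SoF more often than not. Of 715 genes rising on average by at least 1 on the log2 scale, 539 (75.4%) had a larger response in SoF, where the share over all genes was 50.6%. Their median response was 1.25 in wt and 1.52 in SoF, and the median difference was 0.28 (quartiles 0.01 and 0.54). By time it was -0.05 at 1 h, 0.19 at 2 h and 0.34 at 3 h. Among 75 of the 715 genes at least 1 line had 3 or fewer reads at 0 h, and without them 76.1% of 640 were larger in SoF, with a median difference of 0.26. The median moved with the ethanol libraries of SoF: leaving out the second gave 0.14 and leaving out the first gave 0.50. With replicate 1 of every group alone it was 0.38 on the log2 CPM scale, and with replicate 2 alone 0.18. In both lines replicate 1 at 0 h lay nearer the dexamethasone libraries. Measured along the average response over the called genes, the gap between the 2 ethanol libraries was 20.5% of the response in wt and 28.5% in SoF.

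For genes that fell by at least 1 on the log2 scale, no steady direction appeared. Of 874 genes falling on average by at least 1, 372 (42.6%) had a difference above 0, and the median difference was -0.10. The median was 0.05 at 2 h and -0.22 at 3 h. Leaving out 1 library moved it from -0.29 (SoF at 0 h, replicate 1) to 0.22 (SoF at 0 h, replicate 2). It was also above 0 when replicate 1 of wt was left out at 0 h (0.06) or at 2 h (0.08). The median half-width of the interval was 1.4 for these 874 genes and 0.93 for the 715 rising genes. Without the cut of 1, 36.9% of all 3259 falling genes had a difference above 0 (median -0.09). Of all 3768 rising genes 67.5% did (median 0.10). These fuller sets were not refitted with libraries left out.

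**Figure D2:**
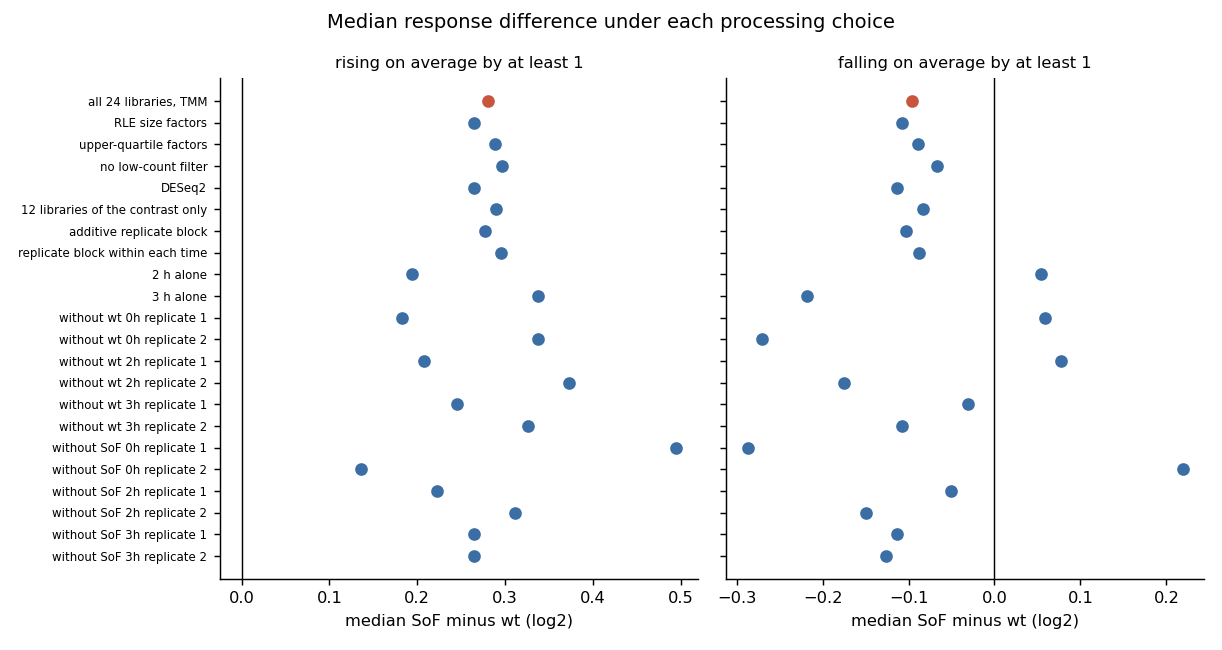
Median of the SoF minus wt response difference (log2, x axis) over the 715 genes rising and the 874 genes falling on average by at least 1, each point being 1 processing choice (y axis) and the red point the value reported. The median of rising genes stays between 0.14 and 0.50, and that of falling genes lies on either side of 0.

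Members of 11 gene lists, most of them with known roles in glucocorticoid action and the rest cell markers, were read next, 120 of 149 with enough counts to test. Of the 120, 0 were called for the difference, and 4 (3.33%, against 1.93% of all genes) had an unadjusted p under 0.05: ETNK2, TXNIP, NR4A2 and CLDN4. On average over both lines 52 members rose, against 15.9% of all genes, and 30 fell, against 13.8%. The difference was above 0 for 59 members, where all genes gave 50.6%, and below 0 for 61. A difference above 0 means a more positive response in SoF and says nothing of the level. Leaving out 1 library moved the difference by over 1.5 times, or turned it, for 53 of the 80 named genes. For 48 of these an ethanol library did so. Both counts are partly set by the design. The 0 h mean rests on fewer libraries than the mean of 2 and 3 h, so each ethanol library weighs more. A difference near 0 also passes the limit of 1.5 times readily. At 0 h the replicates of wt and SoF deviated together (correlation 0.47). Leaving out an ethanol library of 1 line therefore also unbalances a shared shift.

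Among the receptor, its chaperones and its coregulators, 8 of 16 rose on average and 3 fell, and 6 had a difference above 0 (7 with upper-quartile factors). FKBP5 encodes a cochaperone that lowers receptor affinity for hormone and is among the most used reporters of GR activity. It stood at 22.8 and 28.0 CPM in wt at 0 h, 75.6 and 121 at 2 h, and 214 and 224 at 3 h. In SoF the values were 19.4 and 27.3, then 95.2 and 112, then 298 and 297 CPM. Every 2 and 3 h library lay above the ethanol libraries in both lines, and at 3 h both SoF libraries lay above both wt libraries. FKBP5 rose by 2.53 in wt and 2.92 in SoF, and the difference was 0.38 (95% interval -0.15 to 0.92). It was 0.15 with SoF replicate 1 at 0 h left out and 0.64 with replicate 2 left out. FKBP4, the related cochaperone, rose by 1.01 and 0.95, and the difference of -0.06 lay between -0.61 and 0.49. HSPA8, a constitutive HSP70, differed by -0.15 (-0.68 to 0.38).

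Of 14 tested transcription regulators induced by GR, 10 rose on average, 1 fell, and 9 had a difference above 0. PER1, a clock repressor, rose by 1.58 in wt and 1.39 in SoF (difference -0.19, interval -0.75 to 0.36). TSC22D3, which encodes the anti-inflammatory leucine zipper protein GILZ, rose by 2.08 and 1.90 (difference -0.18, interval -1.04 to 0.67). By time its difference was -0.66 at 2 h and 0.29 at 3 h. The mean TSC22D3 level at 3 h was 103 CPM in SoF and 69.7 in wt. Its libraries spread widely: SoF held 75.6 and 36.8 CPM at 2 h and 134 and 72.1 at 3 h. KLF9 rose by 2.09 and 2.18, and CEBPB by 2.67 and 2.88. At 2 h and 3 h the differences were 0.26 and -0.08 for KLF9, and -0.000739 and 0.42 for CEBPB. FOXO1, a forkhead factor of fasting metabolism, rose on average by 2.05 with a difference of 0.34 (-0.39 to 1.08). ZBTB16 was near 0 without hormone, at 0.135 and 0.385 CPM in wt and 0.147 and 0.301 in SoF. It reached 11.6 and 18.1 CPM in wt at 3 h and 29.6 and 24.6 in SoF. Both SoF libraries at 3 h lay above both of wt, yet the difference of 0.92 had an interval from -0.78 to 2.62. It was 0.07 without wt replicate 2 at 0 h.

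Of 11 tested metabolic targets, 8 rose on average and 0 fell, and 6 had a difference above 0. ETNK2, an ethanolamine kinase of phospholipid synthesis, stood at 16.7 and 14.2 CPM in wt at 0 h, 38.0 and 45.8 at 2 h, and 35.6 and 33.2 at 3 h. In SoF it stood at 15 and 10.3, then 49.3 and 39.4, then 59.6 and 52.1 CPM. The lines overlapped at 2 h, and at 3 h both SoF libraries were the higher. It rose by 1.29 in wt and 1.97 in SoF. The difference of 0.67 (interval 0.19 to 1.15) was 0.36 at 2 h and 0.98 at 3 h, and was 0.44 when SoF replicate 2 at 0 h was left out. TXNIP, which binds thioredoxin and limits glucose uptake, stood at 8.49 and 20.4 CPM in wt at 0 h, 34.5 and 53.1 at 2 h and 33.6 and 49.6 at 3 h. SoF held 10.6 and 14.6 CPM, then 74.3 and 63.0, then 70.5 and 66.8. All 4 SoF dexamethasone libraries lay above all 4 of wt, and the 0 h libraries overlapped. TXNIP rose by 1.57 and 2.45, a difference of 0.88 (interval 0.13 to 1.63). It fell to 0.13 without wt replicate 2 at 0 h and was 1.41 without wt replicate 1. Replicate 2 was the higher at 0 h in both lines, and leaving out a library of 1 line unbalances this. PDK4, which shuts down pyruvate oxidation, rose by 3.39 and 3.86. Its difference of 0.47 (-0.34 to 1.29) turned to -0.25 without wt replicate 2 at 0 h. IP6K3, an inositol hexakisphosphate kinase, rose by 4.20 and 4.10 and differed by -0.10 (-0.91 to 0.71). Its mean level was higher in SoF at 0 h (1.59 CPM against 1.02 in wt), 2 h (18.2 against 15.3) and 3 h (40.5 against 23).

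Of 6 tested genes of sodium transport, 3 rose on average and 5 had a difference below 0. SCNN1A, the alpha subunit of the epithelial sodium channel, rose by 6.29 in wt and 5.63 in SoF, from 0.472 and 0.231 CPM and from 0.885 and 0.602 CPM at 0 h. The mean level was nevertheless higher in SoF at 0 h (0.743 CPM against 0.351 in wt), 2 h (39.2 against 26.7) and 3 h (37 against 30.9). The difference of the responses, -0.66, is taken from 0 h levels near 0 and had an interval from -2.20 to 0.88. It was -1.25 or -0.27 with 1 or the other wt ethanol library left out. SGK1, the kinase that keeps this channel at the cell surface, rose by 0.81 and 0.62 and differed by -0.19 (-0.58 to 0.20).

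Of 13 tested inhibitors of inflammatory and MAPK signalling, 8 rose on average, 1 fell, and 10 had a difference above 0 (50.6% over all genes), with a median of 0.09. BIRC3, a ubiquitin ligase of the NF-kappaB pathway, rose by 3.43 in wt and 3.31 in SoF. Its SoF libraries were higher at 0, 2 and 3 h, 56.9 and 52.8 CPM against 35.1 and 31.6 at 0 h, and 618 and 738 against 398 and 398 at 3 h. The difference of the responses was -0.12 (-1.27 to 1.03). SOCS1, an inhibitor of cytokine receptor signalling, rose in SoF by 1.25 (adjusted p = 0.00287). Its wt response was 0.59 (adjusted p = 0.135), and the difference was 0.67 (-0.08 to 1.41). DUSP1, a MAPK phosphatase, had responses of -0.07 and -0.17, neither passing the test, and a difference of -0.10 (-0.63 to 0.43). ANXA1, annexin A1, fell (responses -0.75 and -0.80).

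All 4 tested metallothioneins, small metal-binding proteins, rose on average and had a difference above 0 (50.6% over all genes). Of MT2A the mean level was nevertheless lower in SoF at 0 h (176 CPM in wt and 120 in SoF), 2 h (963 and 794) and 3 h (895 and 884). MT1E rose by 2.78 in wt and 3.36 in SoF (difference 0.58, interval -0.21 to 1.38), MT2A by 2.40 and 2.80 (0.41, -0.37 to 1.19) and MT1X by 1.66 and 2.17 (0.51, -0.31 to 1.33). The ethanol libraries of SoF were the more spread. MT1E held 120 and 91.8 CPM in wt at 0 h and 98.3 and 51.2 in SoF, whereas at 3 h it held 692 and 754 against 857 and 859. Without SoF replicate 2 at 0 h the differences were 0.19 for MT1E, 0.01 for MT2A and 0.09 for MT1X. MT1M had 0 reads in both SoF ethanol libraries and at most 1.38 CPM elsewhere among wt and SoF, so that no fold is given. The sign of its difference turned without wt replicate 1 at 0 h. These genes are near-identical copies, and reads may be split among them.

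Of 19 immediate-early factors, 15 fell on average, 1 rose, and 14 had a difference below 0. Whether dexamethasone or time since the medium change lay behind these falls cannot be told apart here. NR4A2, an orphan nuclear receptor of the NR4A family, stood at 70.9 and 94.4 CPM in wt at 0 h, 28.4 and 33.5 at 2 h, and 18.0 and 11.9 at 3 h. In SoF it began higher, at 137 and 139 CPM, and reached 30.1 and 28.7 at 2 h and 12.1 and 13.8 at 3 h. The lines thus differed at 0 h and overlapped at 2 and 3 h. NR4A2 fell by 1.94 in wt and 2.82 in SoF, a difference of -0.88 (interval -1.56 to -0.20) that was -0.66 without wt replicate 1 at 0 h. The related NR4A1 and NR4A3 differed by -0.56 (-1.55 to 0.43) and -0.62 (-1.91 to 0.68). EGR1 fell, with responses of -3.66 in wt and -3.92 in SoF, from 2950 and 5680 CPM in wt and from 4800 and 4600 CPM in SoF, and differed by -0.26 (-0.97 to 0.44). EGR2 fell in both lines, with responses of -4.37 and -4.26. Its wt ethanol libraries held 88.7 and 371 CPM, and the difference of 0.11 became -1.27 without the second of them. The responses were -2.73 and -2.82 for ATF3 and -3.04 and -3.10 for FOSB, which also fell. FOS, JUN and MYC differed by -0.24, 0.27 and -0.21, each with an interval that held 0.

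Of 11 tested cytokines and chemokines, 5 rose on average, 0 fell, and 9 had a difference below 0, with a median of -0.23. LIF rose by 1.03 in wt and 0.91 in SoF and differed by -0.11 (-0.84 to 0.61). The chemokine gene CCL2 had responses of 1.16 (adjusted p = 0.0249) and 0.93 (adjusted p = 0.0561). CXCL8 differed by -0.50 (-1.71 to 0.71). IL1A went the other way, with a response of 0.88 in wt that did not pass the test (adjusted p = 0.131), one of 1.89 in SoF (adjusted p = 0.00287) and a difference of 1.01 (-0.12 to 2.14). Of 12 matrix, plasminogen and YAP-target genes, 2 rose and 6 fell on average, and 8 had a difference above 0 (6 with relative log expression size factors). The YAP targets CCN1 (-1.18 and -1.34) and CCN2 (-1.37 and -1.48) fell in both lines. MMP3, a matrix metalloproteinase, fell, with responses of -2.23 and -2.56. Among 7 tested osteoblast genes, ALPL, the bone alkaline phosphatase, rose by 1.08 and 1.60 (difference 0.52, -0.06 to 1.1), RUNX2 fell (responses -0.82 and -0.84), and COL1A1 differed by 0.26 (-0.26 to 0.77). CLDN4, a claudin of epithelial tight junctions listed among markers of other cell types, fell in wt by 1.05 and had a SoF response of -0.06, a difference of 0.99 (0.12 to 1.86). Its levels were low, 11.4 and 12.2 CPM in wt and 14.4 and 9.22 CPM in SoF at 0 h.

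**Figure D3:**
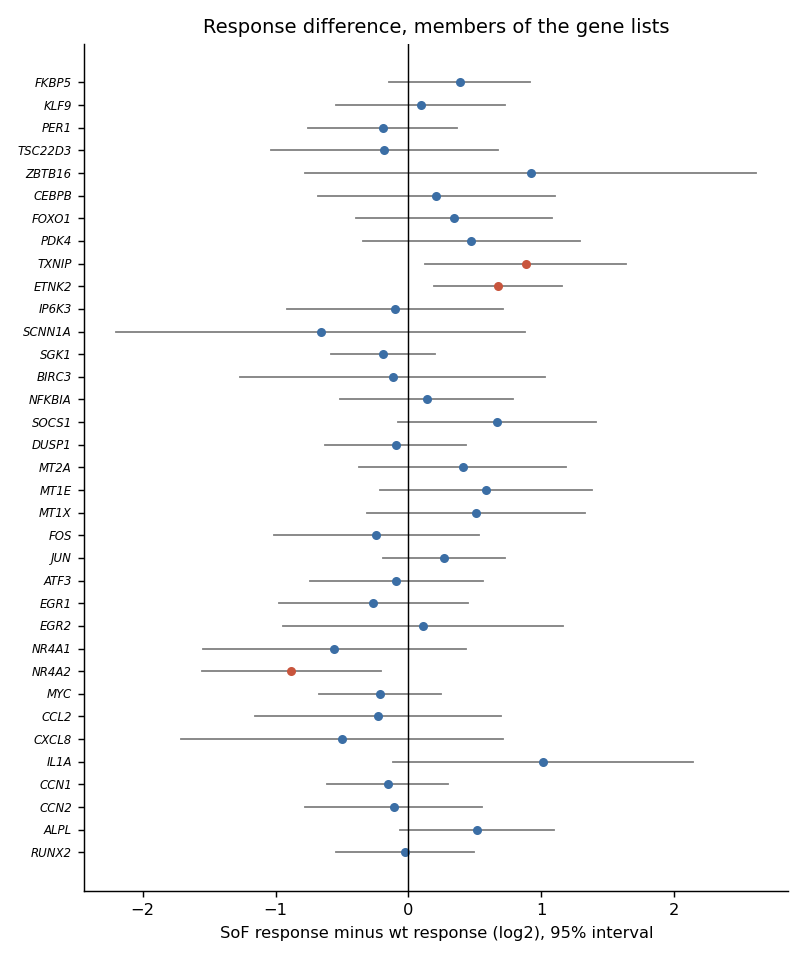
SoF response minus wt response (x axis, log2, mean of 2 and 3 h) for members of the gene lists, with bars for the 95% interval, unadjusted. Red points mark the shown genes with an unadjusted p under 0.05 (TXNIP, ETNK2 and NR4A2), and every other interval includes 0.

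The genes with the smallest p-values were mostly of low level or of unusual position. DEPP1, a regulator of autophagy induced by FOXO factors, was the first protein-coding gene among those larger in SoF. It stood at 142 and 157 CPM in wt at 0 h, 170 and 204 at 2 h, and 122 and 189 at 3 h. In SoF it stood at 102 and 95.7 CPM, then 246 and 270, then 174 and 223. Hence SoF began below wt, lay above it at 2 h and overlapped it at 3 h. DEPP1 rose by 1.19 in SoF (adjusted p = 0.000489), the wt response was 0.19 (adjusted p = 0.598) and that of Ctrl 0.25. The difference of 1.00 (interval 0.42 to 1.59) stayed between 0.86 and 1.18 when any 1 library was left out. DEPP1 (chr10:44970981-44978809, hg38) lies on the minus strand within RASSF4 (chr10:44959407-44995891, plus strand). RASSF4, of the Ras-association domain family, differed by 1.22 (0.10 to 2.34), and by 0.56 without wt replicate 2 at 0 h, whose 53.5 CPM stood above the 24.5 CPM of the other. Strand-aware counting rests on the name of the table alone, so reads of this pair may not be fully separated.

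Of the other 9 genes leading towards SoF, 2 were mitochondrial transfer RNA genes, MT-TS1 (difference 0.82, interval 0.38 to 1.26) and MT-TY (1.07, 0.46 to 1.68). A further pair lay in a part of chromosome 1 that holds copies of mitochondrial DNA: the pseudogene ENSG00000230021 (0.99, 0.50 to 1.49) and the microRNA gene ENSG00000278791 (1.41, 0.52 to 2.30), which cannot be told apart from the mitochondrial genome where reads are near-identical. ENSG00000230021 held 35.4 and 26.2 CPM in wt at 0 h and 15 to 19.9 CPM after dexamethasone, and in SoF 27.4 and 22.2 CPM and then 17.5 to 36.3. The lncRNA ENSG00000289423 (0.80, 0.40 to 1.20) rose in SoF by 1.07, from 12.2 and 12.9 CPM to 33.6 and 30.6 at 2 h. LINC02970 differed by 0.95 (0.40 to 1.51), and ENSG00000275468, ENSG00000274414 and HMGN2P4 by 1.76, 1.73 and 1.60 at levels under 3 CPM in every library of the contrast.

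Among the 10 genes leading the other way, TDRP, a testis development gene, rose in wt by 1.17 and had a SoF response of -0.26, at 1.00 to 4.02 CPM (difference -1.43, interval -2.23 to -0.62). IMMP2L, a mitochondrial inner-membrane peptidase, fell in SoF by 0.89, from 7.52 and 11.8 CPM to 4.52 and 4.30 at 3 h, with a wt response of 0.14 (difference -1.03, -1.64 to -0.41). TMEM41B, a lipid scramblase needed for autophagosome formation, fell in SoF by 0.74, from 49.6 and 65.7 CPM to 33.8 and 28.9 at 3 h. In wt it moved from 29.7 and 37.0 to 31.4 and 30.1, a response of -0.08. The lines therefore differed at 0 h and came together at 3 h (difference -0.66, -1.1 to -0.21). FST, which encodes follistatin, the activin antagonist, fell in both lines, by 1.25 in wt and 1.90 in SoF. It stood at 93.0 and 107 CPM in wt at 0 h and 111 and 99.2 in SoF, without separation. After dexamethasone wt held 48.2 and 37.8 and then 50.7 and 31 CPM, and SoF 29.6 and 30.3 and then 29.0 and 23.9, all below every wt library. The difference of -0.65 (-1.13 to -0.17) was -0.45 without wt replicate 1 at 3 h. The small nuclear RNA gene RNU2-2P differed by -0.98, ANKRD44 by -0.59 and the readthrough gene BUB1B-PAK6 by -1.63. ENSG00000285133, which overlaps DDIT3 on the same strand, differed by -1.48 at levels under 3 CPM.

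Protein-coding genes with clearer responses were then listed, after their values had been seen: those called for the average response, at a mean of 10 CPM or more, ordered by the unadjusted p of the difference. ADPRHL1, of the ADP-ribosylhydrolase family, was the most induced of those leading towards SoF. It held 10.3 and 12.2 CPM in wt at 0 h and 11.4 and 10.9 in SoF. It reached 86.6 and 110 CPM at 2 h and 75 and 100 at 3 h in wt, against 164 and 152 and then 161 and 165 in SoF. All 4 SoF dexamethasone libraries lay above all 4 of wt, from starting levels that overlapped. The responses were 3.04 and 3.85, and the difference of 0.80 (0.24 to 1.37) stayed between 0.68 and 0.95 when any 1 library was left out. In Ctrl the gene rose by 2.53. FBLN1, the matrix protein fibulin 1, held 24 and 23.4 CPM in wt at 0 h and 34.6 and 36.5 at 3 h, and in SoF 18.8 and 16.5 and then 54.4 and 46.8. It rose in SoF by 1.19, the wt response of 0.42 did not pass the test (adjusted p = 0.117), and the difference was 0.76 (0.26 to 1.26). KRT8, a keratin of simple epithelia whose gene overlaps KRT18 on the other strand, rose in SoF by 0.78 with a wt response of 0.17. TYRO3, a receptor tyrosine kinase of the TAM family, rose by 1.03 and 1.78 and METTL7B by 2.66 and 3.80. METTL7B had reads at low level at 0 h, 4.92 and 2.85 CPM in wt and 1.62 and 2.81 in SoF, and its lines overlapped at 3 h. RFNG, SMIM3 and NOVA2 differed by 0.62, 0.69 and 0.59.

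**Figure D4:**
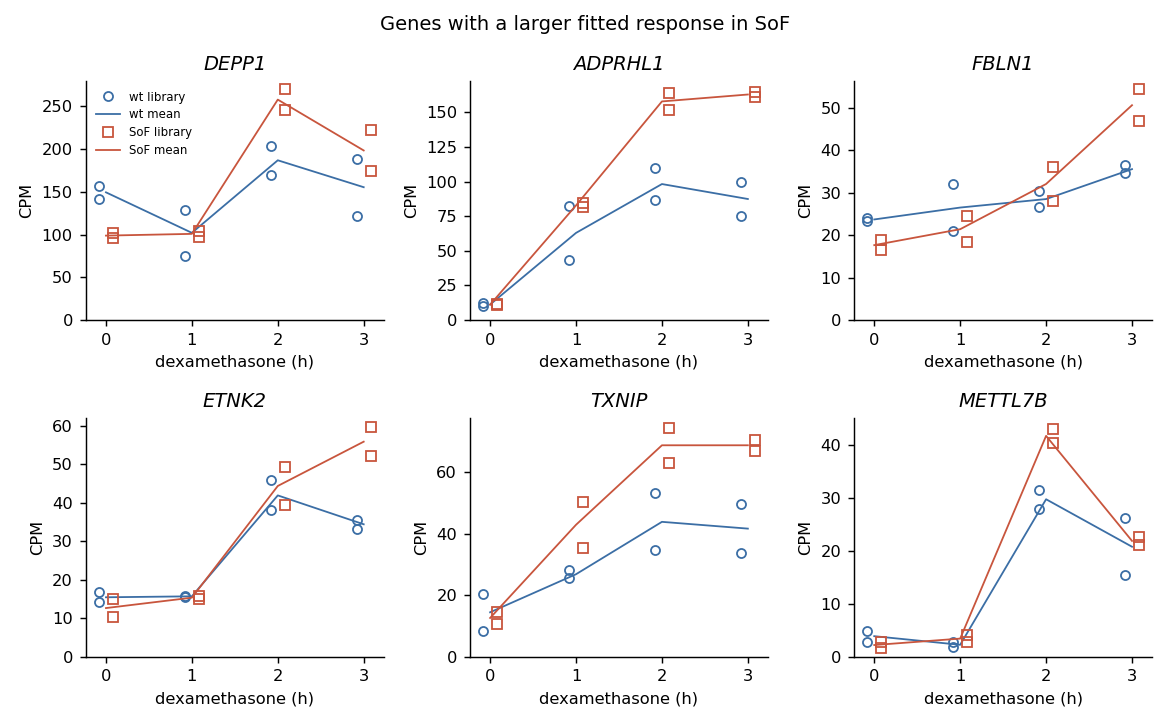
Level in CPM (y axis, from 0) against hours of dexamethasone (x axis) for 6 genes with a larger fitted response in SoF, open symbols being libraries and lines the means of 2. ADPRHL1 and TXNIP separate the lines at 2 and 3 h, ETNK2 and FBLN1 separate them at 3 h and overlap at 2 h, and DEPP1 starts lower in SoF.

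In the other direction the same rule gave genes that fell further in SoF. ST6GALNAC5, a ganglioside sialyltransferase, fell by 0.94 in wt and 1.49 in SoF. It held 91.3 and 98.0 CPM in wt at 0 h and 47.5 and 39.7 at 3 h, against 74.7 and 80.6 and then 21.9 and 23 in SoF. SoF lay below wt at 0, 2 and 3 h, and the difference was -0.55 (-1.02 to -0.08). RND3, an atypical small GTPase, fell by 0.90 and 1.38, and its difference was -0.48 (-0.94 to -0.02). NEK10 fell in SoF by 0.86, from 22.9 and 24.1 to 11.5 and 9.03 CPM at 3 h, with a wt response of -0.20 that did not pass the test (adjusted p = 0.491). The kinase gene NEK7, the ciliary gene CPLANE1 and RHOBTB1 also fell in SoF, and differed by -0.45, -0.42 and -0.43. With 1 library left out the differences ran from -0.69 to -0.21 for NEK7, from -0.57 to -0.26 for CPLANE1 and from -0.47 to -0.39 for RHOBTB1.

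**Figure D5:**
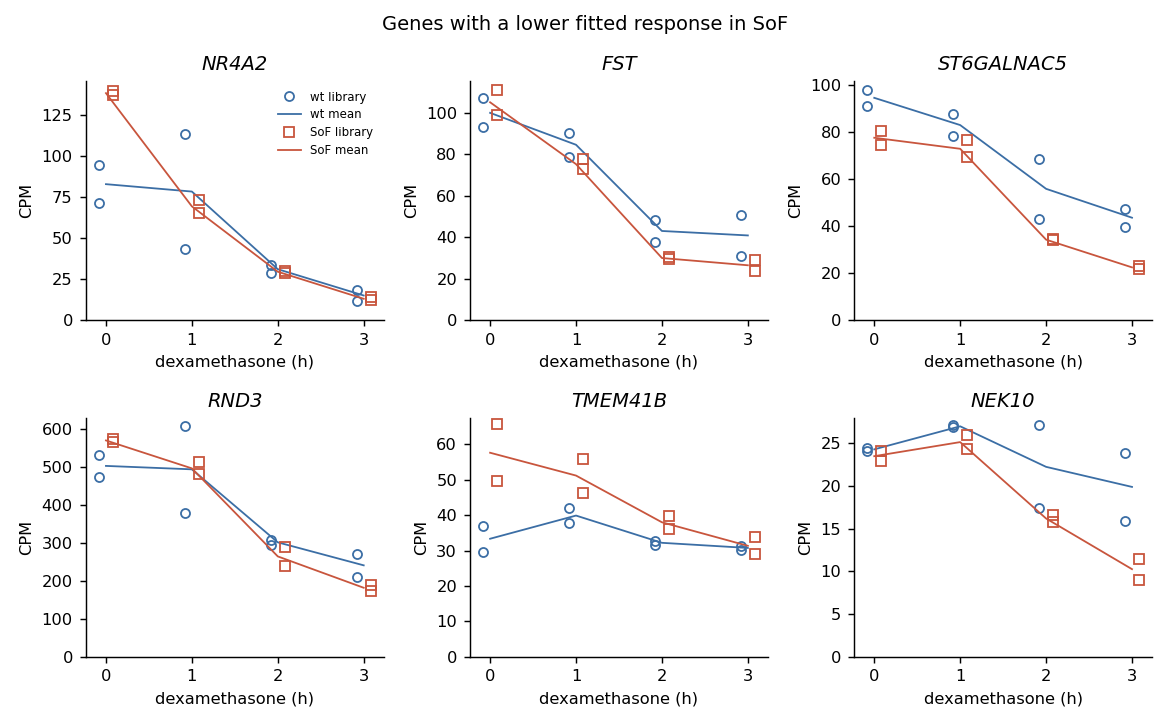
Level in CPM (y axis, from 0) against hours of dexamethasone (x axis) for 6 genes with a lower fitted response in SoF, open symbols being libraries and lines the means of 2. FST starts level and separates after dexamethasone, whereas NR4A2 and TMEM41B start higher in SoF and meet wt by 3 h.

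The Ctrl line, whose receptor has reduced DNA affinity in vitro, is set beside these values. No test against the other lines is reported, since its differences from wt use the same wt libraries. ETNK2 rose in Ctrl by 0.76 and TXNIP had a Ctrl response of 0.15, against 1.29 and 1.57 in wt and 1.97 and 2.45 in SoF. PDK4, at 3.39 in wt and 3.86 in SoF, had a Ctrl response of 0.65, and TSC22D3, at 2.08 and 1.90, one of 0.20. Other induced genes rose more in Ctrl: SCNN1A by 5.70, ZBTB16 by 4.97, IP6K3 by 3.42, FKBP5 by 2.02, CEBPB by 1.83, ALPL by 1.75 and PER1 by 1.43. The genes given are examples, from which the size of the Ctrl response as a whole cannot be read. FST fell in Ctrl by 1.72 and NR4A2 by 2.35, between the wt and SoF values.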

How the data were processed

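4sU-labelled RNA from 24 U2OS libraries was sequenced, and 12 entered the contrast. The authors made the deposited counts by tagging reads with UMI-tools 1.1.2, trimming with Trim Galore 0.6.6, aligning to hg38 with STAR 2.7.3a, removing duplicates and counting exons of GENCODE 39 with featureCounts (Rsubread 2.0.1). Duplicate removal by molecular identifiers leaves counts that are closer to molecules than to reads, and exon counts of an hour's labelling mix new and processed transcripts. Gene names and coordinates came from GENCODE on hg38 and matched 99.7% of genes.

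Counts were fitted with edgeR 4.0.16 (R 4.3.3) over all 24 libraries in 12 groups, with TMM factors, at least 10 counts by filterByExpr, no replicate block and Benjamini-Hochberg adjustment over 23651 genes. Calls were made at an adjusted p under 0.05. Intervals are 95% and unadjusted. Fold changes are log2, and CPM values used TMM library sizes. Alternatives were other scalings, no filter, DESeq2 1.42.0, the 12 libraries alone, replicate blocks, single times and each library left out. The code was tested on simulated data. Promoters were from RefSeq.

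The contrast, gene lists and rule for named genes were chosen with earlier results of these data known. Named were the 10 genes of smallest p in each direction at 1 CPM or more, list members with an unadjusted p under 0.05, up to 4 leading responders of each list and a set of usual GR targets, and the further genes said to be chosen after their values were seen. Some items that meet this rule are not reported here.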

Additional observations from a re-analysis of the deposited data

How the results depend on the processing

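The count of genes called for the difference was 0 under every scaling, DESeq2, the 12 libraries alone, each time alone, each library left out and both replicate blocks (550 and 808 genes at an unadjusted p under 0.05). It was 2 with no filter on low counts. Replicate numbers were not taken to pair the samples, since 5 of 15 correlations between groups of the same number passed 0.1 (range -0.16 to 0.524). At 0 h the lines did deviate together (wt with SoF 0.47, wt with Ctrl 0.457, SoF with Ctrl 0.635), which wt and SoF did less at 2 h (0.0512) and 3 h (0.0749), so that the block is a hint only. The replicate block within each time gave 3974 calls for the wt response in place of 2605. At 2 h alone the calls were 1089 in wt, 1343 in SoF and 3979 on average. Leaving out 1 library gave 795 (wt at 0 h, replicate 2) to 2912 calls in wt, 1040 (SoF at 0 h, replicate 2) to 4871 in SoF and 4602 to 7630 on average, and unadjusted genes for the difference ran from 333 to 1747 (the last without SoF replicate 1 at 0 h). The median difference of genes that rose by at least 1 was 0.136 to 0.495, and of genes that fell by at least 1 -0.287 to 0.219. Of the latter the sign also turned, at 0.0587 and 0.0775, without replicate 1 of wt at 0 h or 2 h. For genes that fell, it was 0.054 at 2 h alone and -0.218 at 3 h alone. The cause was not tested. Replicates taken singly were chosen after seeing the data. Of 80 named genes under 21 alternatives, 53 never changed sign and 27 did, 73 times in all. EGR2 alone turned with an unadjusted edgeR p under 0.05 in either fit, at -1.27 (leaving out 1 library gave -1.27 to 0.825), and DEPP1 and RASSF4 alone passed the threshold, without a filter.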

Other observations

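Transcripts of the mitochondrial genome, looked at after MT-TS1 and MT-TY led the differences, had a more positive response in SoF almost throughout, while their summed share of counts was lower there. Of 37 mitochondrial genes tested, 36 had a difference above 0, where all genes gave 50.6%, and 1, MT-TV, below (-0.34, 95% interval -0.98 to 0.30), and 0 were called. The median difference was 0.25, and 4 had an unadjusted edgeR p under 0.05, against 1.93% of all genes (MT-TS1, MT-TY, MT-TL1 and MT-TA). Their median response in wt was -0.29, against -0.01 in each of the mutant lines. The 13 messenger RNA genes, which encode subunits of the respiratory chain and ATP synthase, differed by 0.10 to 0.30, with MT-ND1 at 0.30 (-0.17 to 0.76) and MT-CO1 at 0.23 (-0.28 to 0.73). The 22 transfer RNA genes had a median difference of 0.39. Genes of 1 genome are cut from shared precursors and are not independent. The share of counts from the mitochondrial genome was 5.63% and 6.34% in wt at 0 h and 4.83% to 5.44% at 2 and 3 h, and in SoF 4.03% to 4.80% at 0 h and 3.62% to 4.62% at 2 and 3 h. Among the 12 libraries of the contrast the wt ethanol libraries held the highest shares. The part of this share in the differences was not tested.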
